A study of Rattus norvegicus with 54 samples.

Results

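Nordihydroguaiaretic acid (NDGA), a lignan of the creosote bush that inhibits lipoxygenases and acts as an antioxidant, was compared with its absence on adipose tissue arrays of rats fed a high fructose diet (HFrD). The comparison took the 6 arrays labelled adipose with the diet HF-INS (HFrD-INS, 3 arrays) or HF-NDGA-INS (HFrD-NDGA-INS, 3 arrays), of 54 arrays in all, and covered all named genes on them. All rats were male Sprague-Dawley, and the tissue was epididymal white adipose tissue. The HFrD-INS rats ate the HFrD without NDGA, and the HFrD-NDGA-INS rats ate the HFrD with NDGA added, at 2.4 g/kg diet for 8 weeks in the series text but at 2.5 g and for 16 weeks in the protocol label. Rats on chow with the same INS label (chow-INS, 3 arrays), and the chow, HFrD and HFrD-NDGA groups without it (3 arrays each), served only to place the values. Neither labels nor methods say what INS stands for, or whether INS groups hold other rats than the groups without INS. RNA of the rats of a group was pooled in equal amount and put on 3 repeat arrays, so each group is 1 pool, and every p-value measures the spread between arrays of a pool and not between rats.

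White adipose tissue stores triglyceride, makes fatty acids from sugar when insulin is high, releases them in fasting and secretes hormones such as leptin and adiponectin. A fat pad also holds endothelial cells, fibroblasts, a mesothelial cover, macrophages and lymphocytes, which make most of its chemokines. Interferons act through STAT and IRF factors on a shared set of antiviral and antigen presentation genes. The epididymal pad lies beside the testis, epididymis and accessory glands, and plasma proteins such as albumin, transthyretin and the fibrinogens are made mainly by hepatocytes. In a bulk pool, fewer cells of a type and less RNA per cell cannot be told apart.

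The tissue label held on both groups. Adipoq, which encodes adiponectin, was saturated on all 6 arrays, where it read between 57335 and 65498 after normalization, and Lep, Plin1 and Fabp4 were detected on all of them. From 61.9% to 63.2% of probes were detected on the HFrD-INS arrays and from 57.7% to 63.1% on the HFrD-NDGA-INS arrays, with raw median intensities of 148 to 193 and 145 to 176. The root mean square log2 difference between arrays averaged 0.483 across the compared groups, 0.31 among the HFrD-INS arrays and 0.339 among the HFrD-NDGA-INS arrays. The HFrD arrays without INS stood apart from all other adipose groups, at mean distances of 0.768 to 0.896, with 53.6% to 55% of probes detected. They enter every value for the pair without INS, and the main comparison only through the shared normalization and spread.

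Of 19791 genes tested, 5154 changed between HFrD-INS and HFrD-NDGA-INS at an adjusted p under 0.05 (26%), 3169 higher with NDGA (16%) and 1985 lower (10%). Higher genes made up 61.5% of the calls, 79.7% after centring each array on its median and 68.4% with no scaling. Most changes were small, since 324 genes also differed by at least 2-fold, 68 of them higher and 256 lower. Falls reached further than rises, with 79 genes at least 4-fold lower and 3 at least 4-fold higher. The arrays of both groups did not overlap for 7536 genes (38.1%), and the median SE of a log2 difference was 0.101.

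The deepest falls were in genes of plasma proteins and liver enzymes. All 12 hepatocyte markers were lower with NDGA, against the 10% of all genes, with a median log2 difference of -2.68 (-2.54 with dim genes at their bounds) against 0 over all genes. Tf, the transferrin gene, was the member nearest to 0 (log2 difference -0.15, adjusted p = 0.036). Its log2 difference reversed to 0.053 after centring the arrays, and its call was lost in 10 other settings. Among these were leaving out HFrD-INS replicate 2 or 3 or HFrD-NDGA-INS replicate 1 or 3, at adjusted p from 0.102 to 0.132. Over all settings its adjusted p reached 0.865. Transthyretin, which carries thyroid hormone and retinol-binding protein in plasma, had the largest fall in the comparison. Ttr read 7060.2, 6845 and 6544 on the HFrD-INS arrays and 76.2, 60.1 and 60.4 on the HFrD-NDGA-INS arrays. The NDGA pool was not above background there, and the fall was at least 90.9-fold (log2 difference -6.71, SE 0.12, adjusted p = 1e-12). On chow-INS arrays Ttr read 156, 212 and 167, so that the HFrD-INS arrays were the high ones and the NDGA arrays lay below chow-INS.

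**Figure D1:**
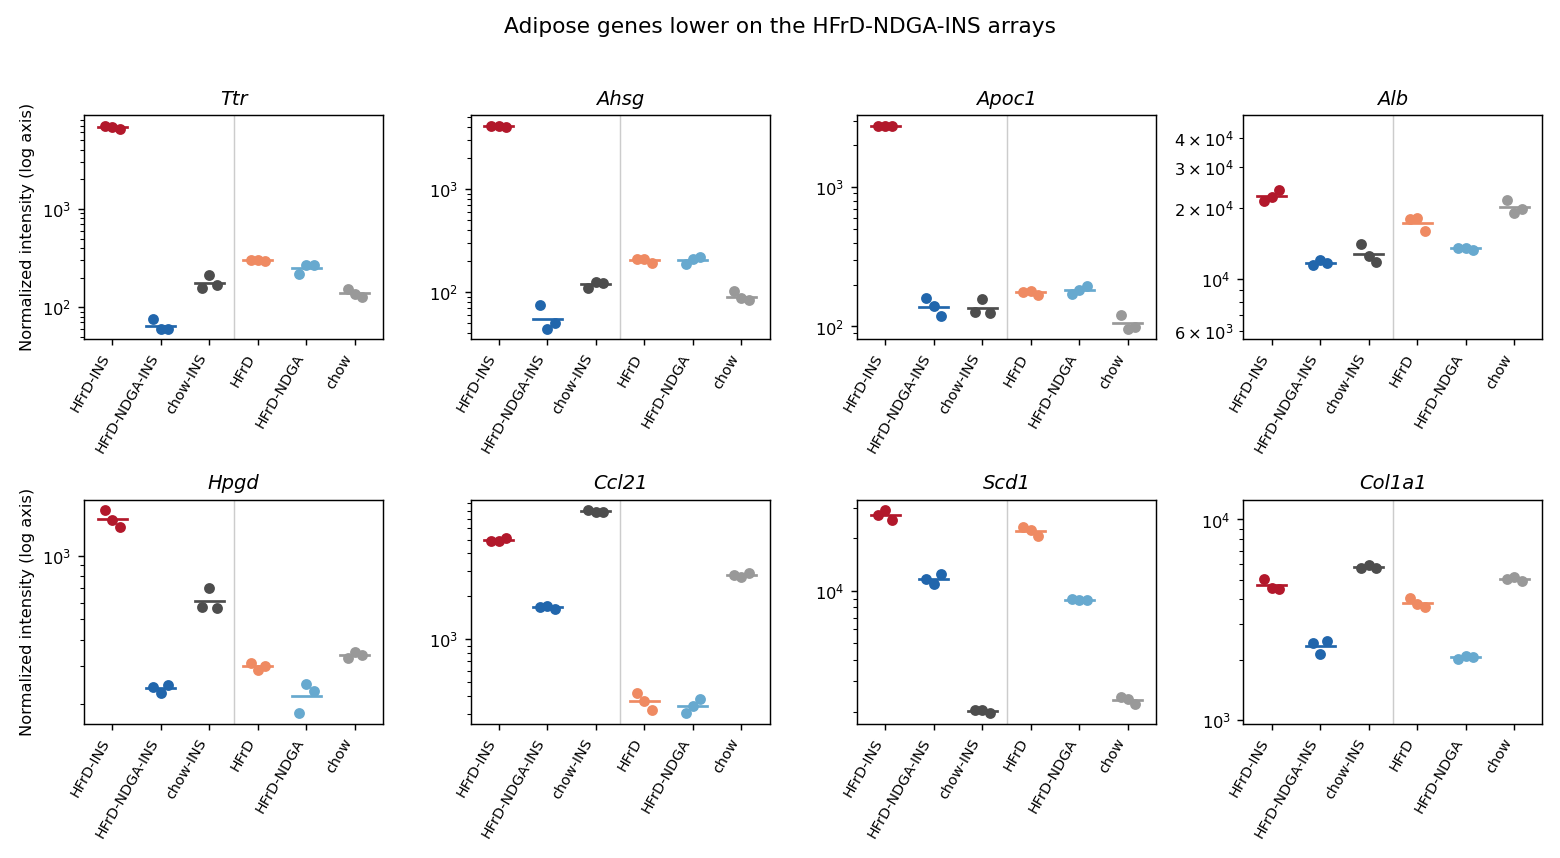
Normalized intensity (log axis) of 8 genes lower with NDGA on the 18 adipose arrays, 3 per group, where points are arrays and lines geometric means. Ttr, Ahsg and Apoc1 stand high only on the HFrD-INS arrays among the 6 groups, while Scd1 and Col1a1 are lower with NDGA on both pairs of pools.

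Other carriers and lipoproteins went the same way. Ahsg, which encodes the secreted glycoprotein fetuin-A, read 4159.9, 4157 and 4062 on the HFrD-INS arrays and 74.4, 43.9 and 50.7 on the HFrD-NDGA-INS arrays (adjusted p = 1.3e-11). Its probe was not above background on any NDGA array, although another probe of the gene was on 2 of them, so no fold is given. Apoc1, an apolipoprotein that inhibits lipoprotein uptake, read 2762, 2744 and 2726 on the HFrD-INS arrays and 159.5, 141 and 118 on the HFrD-NDGA-INS arrays (log2 difference -4.31, SE 0.11, adjusted p = 4.4e-11). The groups did not overlap in either gene. Fabp1, the fatty acid binding protein of liver, read 1784, 1974 and 2068 on the HFrD-INS arrays and 43, 37.8 and 42.7 on the HFrD-NDGA-INS arrays and was at least 25.9-fold lower. Gc, the vitamin D binding protein, read 1744, 1663 and 1557 on the HFrD-INS arrays and 20.8, 33.1 and 22.4 on the HFrD-NDGA-INS arrays and was at least 22.1-fold lower. These 2 genes had no NDGA array above background, and the same held for Ambp, the precursor of alpha-1-microglobulin, at least 18.1-fold lower, and for Apoa2, an apolipoprotein of high density lipoproteins, at least 15.5-fold lower.

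Other plasma protein genes were detected on all 6 arrays. Serpina1, which encodes alpha-1-antitrypsin, read 1626, 1448 and 1298 on the HFrD-INS arrays and 140.4, 167 and 150.3 on the HFrD-NDGA-INS arrays (log2 difference -3.25, SE 0.14, adjusted p = 3e-09). Hpx, the heme scavenger hemopexin, read 1312, 1274 and 1414 on the HFrD-INS arrays and 234, 296 and 256 on the HFrD-NDGA-INS arrays (log2 difference -2.35, SE 0.14, adjusted p = 8.5e-08). Apoc3, an inhibitor of lipoprotein lipase, read 4843, 4656 and 4008 on the HFrD-INS arrays and 886, 1005 and 947 on the HFrD-NDGA-INS arrays (log2 difference -2.25, SE 0.078, adjusted p = 4.8e-10). In all 3 genes every NDGA array lay well below every HFrD-INS array and near the chow-INS arrays. The cytochrome P450 genes Cyp2d2 and Cyp2e1 had log2 differences of -2.86 (adjusted p = 6e-07) and -2.10 (adjusted p = 3.3e-08). The steroid dehydrogenase gene Hsd3b5 fell by a log2 difference of -2.10 (adjusted p = 4.5e-05), and the lipocalin gene Obp3, which has near-identical copies that a probe may not separate, by -1.86 (adjusted p = 0.0051).

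Alb, the gene of serum albumin, was bright in every group and moved less. It read 21506, 22414 and 23963 on the HFrD-INS arrays and 11497, 11994 and 11699 on the HFrD-NDGA-INS arrays (log2 difference -0.95, SE 0.067, adjusted p = 4.9e-07). The chow-INS arrays read 14107, 12520.5 and 11786 and the chow arrays without INS 21579, 19170.2 and 19847, so the NDGA arrays lay at the low end of a range that all pools shared. Fgb and Fgg, 2 fibrinogen chains, had log2 differences of -1.75 (adjusted p = 8.4e-09) and -1.05 (adjusted p = 1.6e-07). Fga, the third chain, read 877, 936 and 783 on the HFrD-INS arrays and 58, 45.8 and 48.7 on the HFrD-NDGA-INS arrays and was at least 11.5-fold lower.

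The same genes stood beside a wider liver pattern. On the 3 liver chow arrays of the series, 655 genes were detected throughout and read at least 10 times their adipose chow level, a definition made after the falls were seen. Of these liver-enriched genes 230 were lower with NDGA (35.1%) and 43 higher, against 9.17% lower among the 19136 other genes. They made up 11.6% of all falls, 142 of the 256 falls of at least 2-fold (55.5%) and 73 of the 79 of at least 4-fold (92.4%). Their median intensity was 2.42% to 2.44% of the liver level on the HFrD-INS arrays and 2.08% to 2.18% on the HFrD-NDGA-INS arrays. On the other adipose arrays it ran from 1.98% to 2.29%. Every adipose pool thus read close to this level, and the value does not give a share of liver RNA. The summed intensity of the 12 hepatocyte markers ran from 72235 to 76464 on HFrD-INS, from 43211 to 45104 on HFrD-NDGA-INS and from 44073 to 49509 on chow-INS arrays. Without the liver-enriched genes 4881 genes were called, 3126 higher and 1755 lower. Of the 12 hepatocyte markers 11 were also higher on HFrD-INS than on chow-INS arrays, against 11.8% of all genes. That comparison shares the HFrD-INS arrays and called 4782 genes in either direction (24.2%). Ttr differed there by a log2 value of 5.27 and Apoc1 by 4.34. The part of liver RNA in these falls was not tested.

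Hepatocyte promoters often hold a site for HNF1, a factor that binds GTTAATNAT and related letters. Windows from 250 bases before to 50 after the gene start (RefSeq, GRCr8) were found for 10 of the 12 hepatocyte markers, and 2 of these held GTTAATNAT on either strand (20%), against 0.75% of all 27457 windows. Both are shown because they belong to genes that fell, Alb (chr14:17906930-17907229, minus strand) and Fga (chr2:170671919-170672218, plus strand), with the match in capitals. A match is a description of letters and not evidence of binding. GTTAATNAT was in 0 of 9 windows of the 12 largest falls. The marker list was chosen as hepatocyte genes, and the search was chosen after the falls were seen. Its share of matches is therefore not evidence from these arrays.
Alb: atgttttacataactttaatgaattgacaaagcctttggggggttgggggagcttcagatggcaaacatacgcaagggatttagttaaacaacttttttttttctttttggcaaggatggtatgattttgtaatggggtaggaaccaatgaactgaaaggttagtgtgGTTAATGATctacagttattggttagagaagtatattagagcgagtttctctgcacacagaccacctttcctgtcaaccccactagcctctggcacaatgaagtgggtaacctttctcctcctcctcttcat
Fga: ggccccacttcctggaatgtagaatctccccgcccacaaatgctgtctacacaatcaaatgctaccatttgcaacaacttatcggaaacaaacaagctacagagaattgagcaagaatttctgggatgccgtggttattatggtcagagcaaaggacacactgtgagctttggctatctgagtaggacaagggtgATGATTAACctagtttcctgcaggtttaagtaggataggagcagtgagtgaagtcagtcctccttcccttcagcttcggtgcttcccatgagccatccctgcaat

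Some deep falls lay outside the liver-enriched genes or near their limit. Hpgd, whose enzyme inactivates prostaglandins, read 1639.9, 1476 and 1361 on the HFrD-INS arrays and 241, 225 and 246 on the HFrD-NDGA-INS arrays (log2 difference -2.65, SE 0.11, adjusted p = 3.4e-09). On chow-INS arrays it read 571, 707 and 565, so the NDGA arrays were below both other INS groups. Aldh1a1, a retinal dehydrogenase, read 1449.8, 1509.7 and 1506 on the HFrD-INS arrays and 537, 538 and 573 on the HFrD-NDGA-INS arrays (log2 difference -1.44, SE 0.037, adjusted p = 3.6e-11), with the NDGA arrays close to the chow-INS values of 470.1, 491 and 446. It counts as liver-enriched, at 10.5 times its adipose level on the liver arrays. Sc5d, a desaturase late in cholesterol synthesis, read 678, 653 and 562 on the HFrD-INS arrays and 185, 166 and 178 on the HFrD-NDGA-INS arrays (log2 difference -1.84, SE 0.13, adjusted p = 3.9e-07). Its groups were far apart, and its level on liver arrays was 8.01 times that in adipose tissue, just under the limit for liver-enriched genes. Rps25-ps10, annotated as a pseudogene of ribosomal protein S25, read 713, 629 and 366 on the HFrD-INS arrays and 119, 90.4 and 136 on the HFrD-NDGA-INS arrays (log2 difference -2.27, SE 0.25, adjusted p = 2.5e-05), and RSA-14-44 read 2066, 1857 and 1389 on the HFrD-INS arrays and 461, 302 and 447 on the HFrD-NDGA-INS arrays (log2 difference -2.14, SE 0.17, adjusted p = 1.3e-06). Neither of the last pair overlapped between groups, and a probe of a pseudogene may also bind its parent transcript.

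Ccl21, a chemokine of lymphatic vessels that draws in T cells and dendritic cells, read 4914, 4869 and 5116 on the HFrD-INS arrays and 1686, 1717 and 1641 on the HFrD-NDGA-INS arrays (log2 difference -1.56, SE 0.087, adjusted p = 4.5e-08). The NDGA arrays were low and narrow, and chow-INS arrays were highest at 8057, 7789 and 7870.2. Scd1, which makes monounsaturated fatty acids, read 27343, 29123 and 25458 on the HFrD-INS arrays and 11612, 10987 and 12531 on the HFrD-NDGA-INS arrays (log2 difference -1.22, SE 0.061, adjusted p = 1.6e-08). It stayed far above the chow-INS values of 2054, 2045 and 1959.9, with a log2 difference between HFrD-NDGA-INS and chow-INS of 2.53 (adjusted p = 5.3e-12; 6299 genes called in that comparison, 31.8%). Col1a1, a chain of type I collagen, read 5065, 4559.7 and 4497 on the HFrD-INS arrays and 2417, 2137 and 2489.6 on the HFrD-NDGA-INS arrays (log2 difference -1.0, SE 0.056, adjusted p = 5.1e-08), below the chow-INS values of 5704, 5935 and 5736.

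Interferon-induced genes rose together. Of 22 interferon response genes 15 were higher with NDGA and 0 lower, against the 16% of all genes that were higher, and their median log2 difference was 0.61. Over 19 settings of the processing from 13 to 18 of them were higher and the median ran from 0.56 to 0.80. None of the 22 was higher on HFrD-INS than on chow-INS arrays and 13 were lower, again with the HFrD-INS arrays shared. In that comparison 11.8% of all genes were higher and 12.4% lower. Oas1a, an antiviral oligoadenylate synthetase, read 409, 432 and 417 on the HFrD-INS arrays and 1051, 880.4 and 911 on the HFrD-NDGA-INS arrays (log2 difference 1.17, SE 0.067, adjusted p = 6.2e-08). Usp18, which removes ISG15 from proteins, read 1310.4, 1265 and 1405 on the HFrD-INS arrays and 2879, 2745 and 2704 on the HFrD-NDGA-INS arrays (log2 difference 1.07, SE 0.066, adjusted p = 1.5e-07). Mx1, an antiviral GTPase, read 2399, 2294 and 2445 on the HFrD-INS arrays and 5258, 4706 and 4708 on the HFrD-NDGA-INS arrays (log2 difference 1.04, SE 0.052, adjusted p = 1.8e-08). In these 3 genes each NDGA array was above each HFrD-INS array. Ifit3, which binds viral RNA with its partners, read 331, 315 and 299 on the HFrD-INS arrays and 559.8, 668 and 586 on the HFrD-NDGA-INS arrays (log2 difference 0.94, SE 0.097, adjusted p = 1.6e-05), with no overlap.

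**Figure D2:**
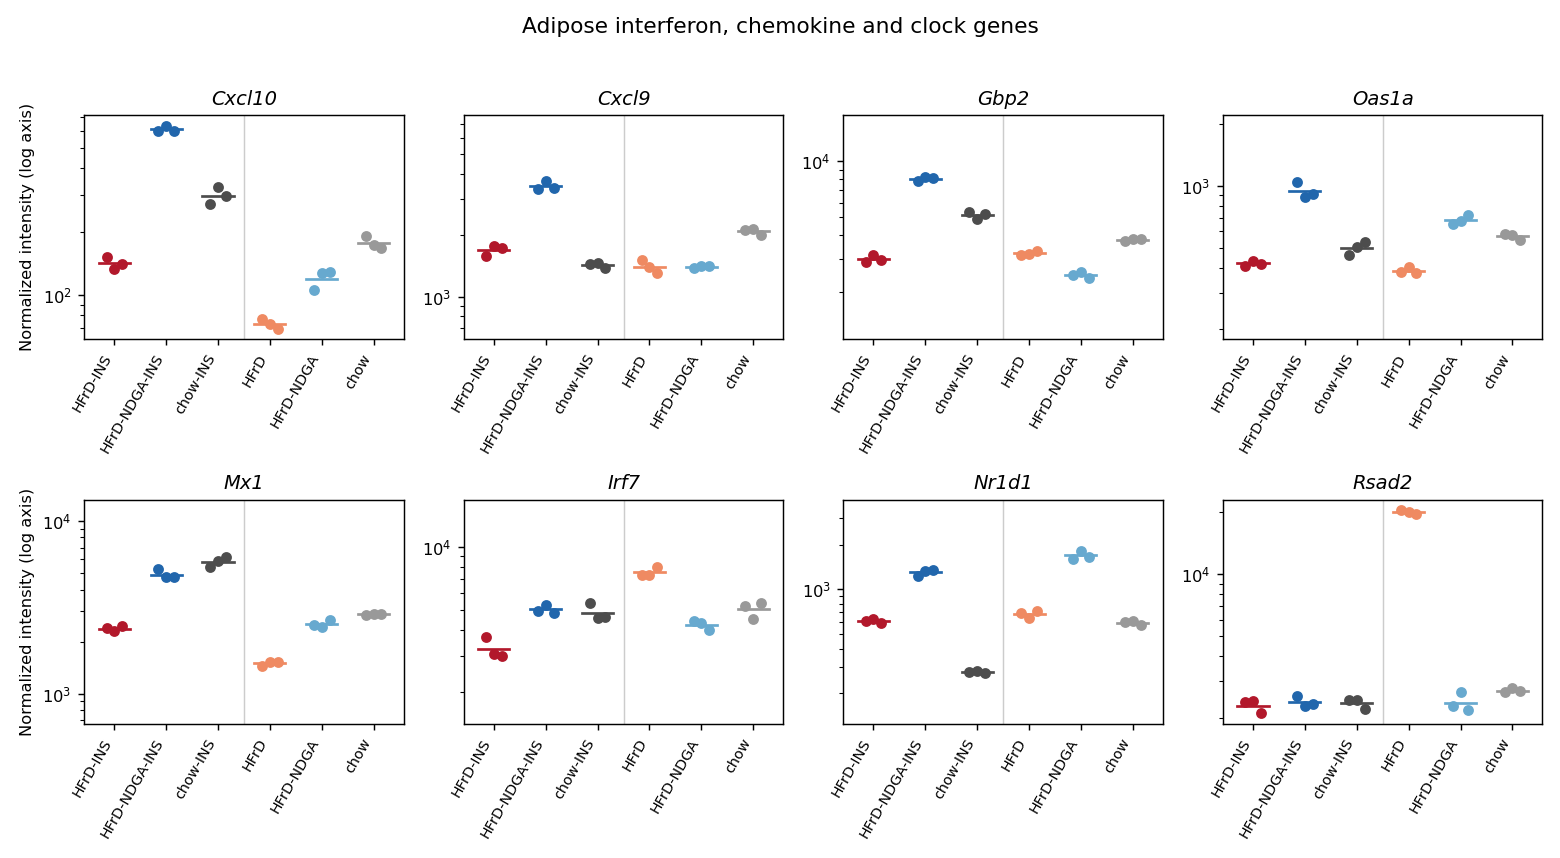
Normalized intensity (log axis) of 8 genes on the 18 adipose arrays, 3 per group, where points are arrays and lines geometric means. Cxcl10, Cxcl9 and Gbp2 are highest on the HFrD-NDGA-INS arrays, and Rsad2 reads 2095 to 2558 on the INS arrays but 19745 to 20524 on the HFrD arrays without INS.

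The interferon-induced GTPase gene Gbp2 was brighter and rose by a log2 difference of 1.43. It read 2879, 3128 and 2965 on the HFrD-INS arrays and 7796, 8279.6 and 8121 on the HFrD-NDGA-INS arrays (SE 0.04, adjusted p = 5.6e-11), and on chow-INS arrays 5340, 4926 and 5239. The NDGA arrays were the highest of all adipose arrays. Ddx60, an antiviral helicase, read 261, 260.2 and 276 on the HFrD-INS arrays and 594, 644 and 552 on the HFrD-NDGA-INS arrays (log2 difference 1.16, SE 0.054, adjusted p = 8.4e-09), and its NDGA arrays reached the chow-INS values of 573, 567 and 559. Antigen presentation genes rose with them, Tap1, a peptide transporter, by 0.90 (adjusted p = 4.6e-08) and the class I gene RT1-T24-3 by 1.32 (adjusted p = 1.6e-08), the latter from a family with near-identical copies. The transcription factors Irf1, Irf7 and Stat2 had log2 differences of 0.76, 0.63 and 0.58, each past the test. Isg15, a ubiquitin-like modifier, rose by 0.82 and Bst2, which tethers virus particles, by 0.78.

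The 7 members that did not pass included well known ones. Rsad2, an antiviral enzyme picked out after its values were seen, read 2379.6, 2407 and 2095 on the HFrD-INS arrays and 2558, 2275 and 2329.6 on the HFrD-NDGA-INS arrays (log2 difference 0.059, adjusted p = 0.66), with the groups overlapping. Ifit1 read 70.4, 94.7 and 101 on the HFrD-INS arrays and 45.9, 66.1 and 81.2 on the HFrD-NDGA-INS arrays (log2 difference -0.48, adjusted p = 0.093), and passed without HFrD-INS replicate 1 (adjusted p = 0.041) or without HFrD-NDGA-INS replicate 3 (adjusted p = 0.025). B2m was saturated, and the remaining 4 had log2 differences between -0.18 and 0.26.

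The binding letters of IRF factors were searched in the same RefSeq windows, a search chosen after the rises were seen. GAAANNGAA occurred on either strand in 10 of the 16 windows found for the interferon list (62.5%), in 4 of those of the 12 largest rises (33.3%), in 4 of 21 for the chemokine and cytokine list (19%), and in 9.5% of all windows (2608 of 27457). It was in 0 of 9 windows of the 12 largest falls. The 10 windows of the interferon list include those of Rsad2, which did not pass, and the saturated B2m. That list was chosen as genes of the interferon response, so its share of matches is not evidence from these arrays. The windows of 5 genes that rose are shown, with GAAANNGAA or its reverse complement in capitals (GRCr8, 5′ to 3′ on the strand of the gene). They are Oas1a (chr12:41330216-41330515, plus strand), Ddx60 (chr16:33208790-33209089, minus strand), Gbp2 (chr2:234005477-234005776, plus strand), Bst2 (chr16:18254918-18255217, minus strand) and Irf7 (chr1:205799974-205800273, minus strand). Oas1a, Ddx60 and Bst2 hold 2 matches each, which overlap in Oas1a and Bst2, and the other 2 genes hold 1.
Oas1a: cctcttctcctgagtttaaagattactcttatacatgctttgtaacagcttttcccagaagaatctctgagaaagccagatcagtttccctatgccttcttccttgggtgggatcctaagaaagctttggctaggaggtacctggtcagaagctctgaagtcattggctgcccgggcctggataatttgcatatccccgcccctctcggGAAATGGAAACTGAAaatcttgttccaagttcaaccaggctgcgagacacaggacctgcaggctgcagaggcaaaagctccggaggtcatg
Ddx60: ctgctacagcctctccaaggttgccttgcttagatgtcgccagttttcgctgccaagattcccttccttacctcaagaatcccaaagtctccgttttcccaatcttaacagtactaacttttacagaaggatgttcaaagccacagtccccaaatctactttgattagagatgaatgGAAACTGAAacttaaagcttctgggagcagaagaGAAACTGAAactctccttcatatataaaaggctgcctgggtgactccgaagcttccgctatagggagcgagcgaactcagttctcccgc
Gbp2: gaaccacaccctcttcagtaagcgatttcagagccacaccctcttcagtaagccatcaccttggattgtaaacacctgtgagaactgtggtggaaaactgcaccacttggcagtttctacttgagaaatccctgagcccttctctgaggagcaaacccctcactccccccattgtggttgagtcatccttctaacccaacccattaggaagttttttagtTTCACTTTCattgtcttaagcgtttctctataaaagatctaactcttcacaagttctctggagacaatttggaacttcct
Bst2: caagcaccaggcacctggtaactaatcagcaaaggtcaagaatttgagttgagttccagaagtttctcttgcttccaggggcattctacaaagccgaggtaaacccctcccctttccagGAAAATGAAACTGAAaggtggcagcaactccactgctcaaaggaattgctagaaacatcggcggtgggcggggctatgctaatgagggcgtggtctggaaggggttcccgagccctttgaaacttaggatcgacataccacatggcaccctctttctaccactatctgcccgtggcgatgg
Irf7: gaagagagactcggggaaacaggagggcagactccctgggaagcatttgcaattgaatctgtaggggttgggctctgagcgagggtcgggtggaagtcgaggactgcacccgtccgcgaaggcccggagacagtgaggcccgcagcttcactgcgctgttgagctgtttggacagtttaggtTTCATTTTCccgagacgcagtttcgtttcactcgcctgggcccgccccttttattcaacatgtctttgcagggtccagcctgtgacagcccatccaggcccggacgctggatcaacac

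Letters of other factors were searched in the same windows. CACGTG, the E-box, was in 2 of the 9 windows of the largest falls (22.2%) and in 0 of 12 of the largest rises, against 6.65% of all windows. TGACNNNGC, the core of the antioxidant response element, was in 2 of 12 (16.7%) and 2 of 9 (22.2%), against 12.2%.

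Chemokines and cytokines were the second group that rose. Of 28 genes 18 were higher and 2 lower, against 16% and 10% of all genes, with a median log2 difference of 0.33. From 12 to 18 were higher over the 19 settings, and 22 of the 28 were above background in a compared group. Cxcl10, a chemokine for activated T cells induced by interferon, had the largest rise of the comparison among genes measured in both groups. It read 151, 133 and 140.1 on the HFrD-INS arrays and 602, 639 and 602 on the HFrD-NDGA-INS arrays (log2 difference 2.12, SE 0.086, adjusted p = 2.4e-09), against 270.4, 328 and 294 on chow-INS arrays. Cxcl11 read 72.4, 82.3 and 82.6 on the HFrD-INS arrays and 319, 337 and 322 on the HFrD-NDGA-INS arrays (log2 difference 2.05, SE 0.077, adjusted p = 1e-09) and Cxcl9 read 1586, 1775 and 1738 on the HFrD-INS arrays and 3369.6, 3673 and 3393 on the HFrD-NDGA-INS arrays (log2 difference 1.03, SE 0.056, adjusted p = 3.3e-08). These 3 ligands share the receptor CXCR3, and the NDGA arrays were highest of the INS groups in each of them. Cxcl11 also met the definition of a liver-enriched gene.

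Ligands of other receptors rose by less. Ccl19, a ligand of CCR7 like Ccl21, read 129, 105 and 105 on the HFrD-INS arrays and 239, 231 and 189.6 on the HFrD-NDGA-INS arrays (log2 difference 0.96, SE 0.12, adjusted p = 9.5e-05), while the chow-INS arrays read 1597, 1902 and 1651 and stood far above both. Ccl7 and Ccl11, chemokines for monocytes and eosinophils, rose by 0.94 (adjusted p = 6.5e-08) and 0.76 (adjusted p = 6.8e-08), and Ccl2 by 0.50 (adjusted p = 0.0049). Tnf, tumor necrosis factor, read 109, 82.3 and 87.1 on the HFrD-INS arrays and 224, 203 and 171 on the HFrD-NDGA-INS arrays (log2 difference 1.10, SE 0.14, adjusted p = 8.9e-05). Its NDGA arrays lay at the chow-INS values of 202, 250.3 and 225, and the HFrD-INS arrays were the low ones. Bcl3, a nuclear partner of NF-kB, read 155, 141 and 119.6 on the HFrD-INS arrays and 355, 360.4 and 322 on the HFrD-NDGA-INS arrays (log2 difference 1.33, SE 0.10, adjusted p = 1.3e-06) and was also low on the HFrD-INS arrays only, among the INS groups.

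Immune cell markers moved with these genes. Their counts stand against the 16% of all genes that were higher and the 10% that were lower. Of 12 T and NK cell markers 6 were higher and 0 lower, and their summed intensity ran from 2484 to 2609 on HFrD-INS, from 2877 to 3082 on HFrD-NDGA-INS and from 11999.7 to 13206 on chow-INS arrays. Cd3e, which defines T cells, was not above background in either compared group, and Nkg7, a granule protein of NK and cytotoxic T cells, read 127, 113 and 97.4 on the HFrD-INS arrays and 225, 203 and 196 on the HFrD-NDGA-INS arrays (log2 difference 0.89, adjusted p = 7.8e-06). Of 7 B cell markers 4 were higher and 0 lower, with sums of 876 to 923, 1121 to 1261 and 7334 to 7444 in the same order of groups. Cd79a, Cd79b and Pou2af1 were not above background in the compared groups, though Cd79b and Pou2af1 are among the 4 rises. The median log2 difference of the B cell list was 0.73, and 0.28 with dim genes at their bounds. Ms4a1 (CD20) read 80.3, 104 and 86.4 on the HFrD-INS arrays and 155, 148 and 144 on the HFrD-NDGA-INS arrays (log2 difference 0.73, adjusted p = 0.00017). Of 20 macrophage markers 6 were higher and 2 lower, the latter at the share of all genes, with sums of 94339 to 96975 and 98218 to 100844. Neutrophil markers were higher in 4 of 8, with sums of 8203 to 9107 on HFrD-INS, 10070 to 10394 on HFrD-NDGA-INS and 13820 to 15650 on chow-INS arrays. Only 4 of the 8 were above background in a compared group. Their median log2 difference was 0.17, and 0.071 with dim genes at their bounds. The part of these cells in the interferon and chemokine rises was not tested.

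Among the other large rises, Pla2g2a, a secreted phospholipase A2, read 10462, 10739.5 and 9922 on the HFrD-INS arrays and 31339, 16525 and 31904 on the HFrD-NDGA-INS arrays (log2 difference 1.30, SE 0.18, adjusted p = 0.00021), so that 1 NDGA array lay well below the other two though above all HFrD-INS arrays. Cela3b, a pancreatic elastase, read 425, 332 and 431 on the HFrD-INS arrays and 934, 943 and 915 on the HFrD-NDGA-INS arrays (log2 difference 1.24, SE 0.15, adjusted p = 6.9e-05) without overlap. Ucma, a matrix protein known from cartilage, was dim and read 74.7, 74.3 and 71.9 on the HFrD-INS arrays and 181, 153 and 163 on the HFrD-NDGA-INS arrays (log2 difference 1.17, SE 0.12, adjusted p = 1.4e-05). Of the genes with no HFrD-INS array above background, the largest lower bounds were for Alx1, a homeobox factor, at least 2.01-fold higher, and the kinase gene Sbk1, at least 1.87-fold. Evpl, which encodes envoplakin, was at least 1.78-fold higher and Ifgga4l at least 1.63-fold. Alx1 and Sbk1 read at most 151 and 140.4 on any NDGA array, close to the detection limit of the arrays.

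Seminal vesicle secretory genes rose at low levels. Svs4 read 228, 285 and 247 on the HFrD-INS arrays and 631, 710.3 and 608 on the HFrD-NDGA-INS arrays (log2 difference 1.36, SE 0.14, adjusted p = 1.9e-05), Semg1 read 187, 152 and 142 on the HFrD-INS arrays and 360.03, 418 and 371 on the HFrD-NDGA-INS arrays (log2 difference 1.26, SE 0.13, adjusted p = 1.4e-05), and Svs6 rose at least 1.77-fold. Of 11 markers of the accessory glands 5 were higher and 0 lower, against 16% and 10% of all genes. Only 7 of the 11 were above background in a compared group. The median log2 difference of the 11 was 0.55, and 0.23 with dim genes at their bounds. Their sums were 1297 to 1509 on HFrD-INS and 2191 to 2432 on HFrD-NDGA-INS arrays. The chow-INS sums were 762 to 895, and the HFrD arrays without INS reached 211630 to 221676. Pbsn and Tgm4, which mark prostate, were not above background. None of 12 epididymis and testis markers passed the test.

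Genes of lipid metabolism changed in both directions and mostly by little. The plot of pathway lists gives their shares beside those of all genes. Centring each array on its median moved the median log2 difference over all genes from 0 to 0.058. A list median given below as positive after centring is to be read against that value.

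**Figure D3:**
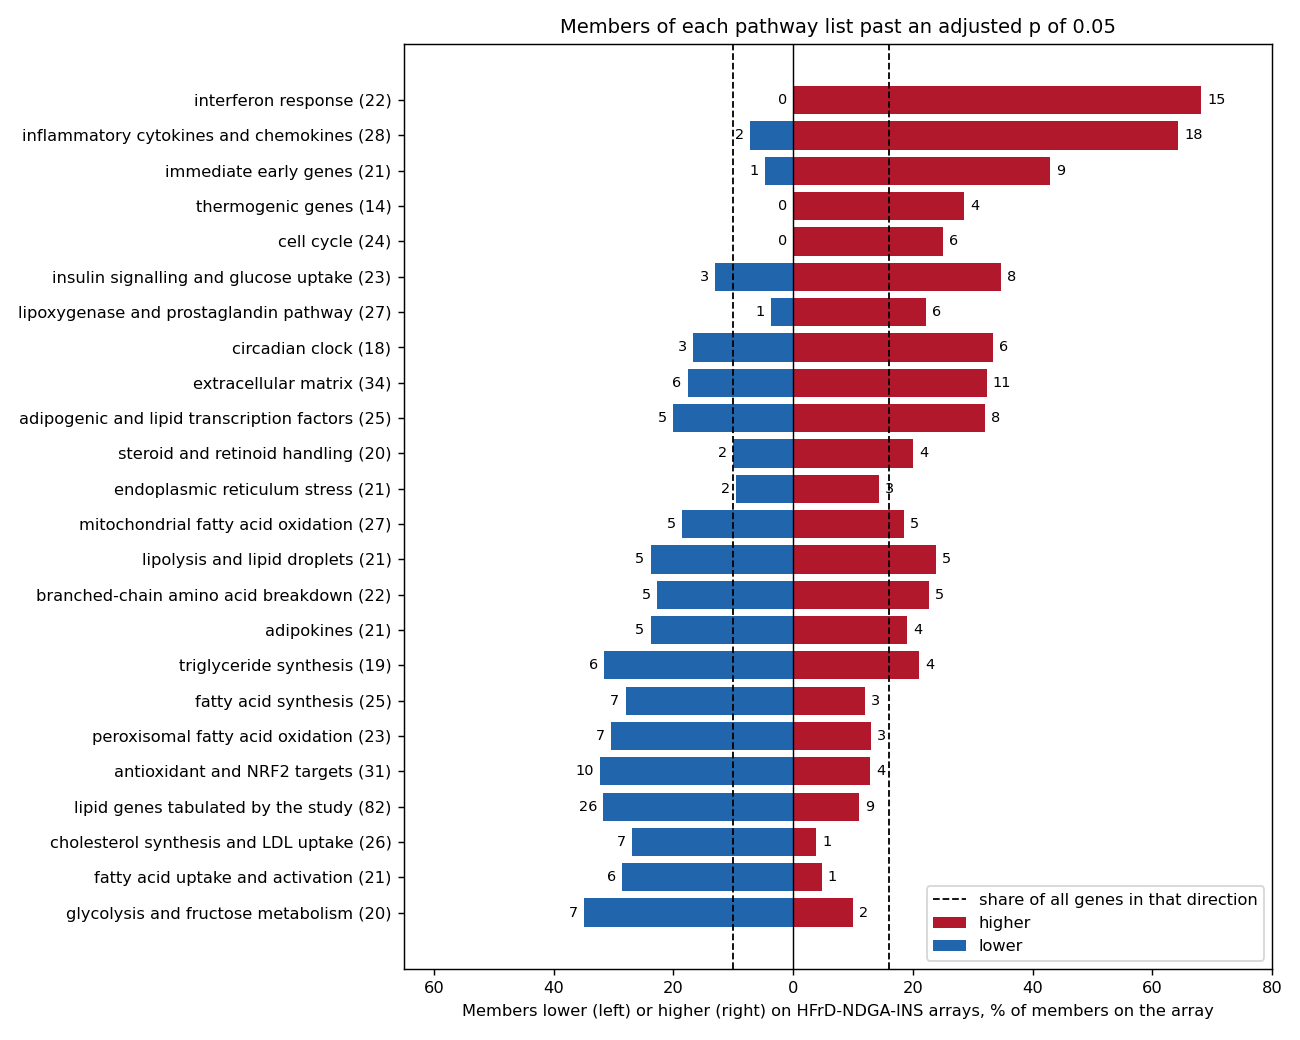
Percent of the measured members of 24 pathway lists that were higher (right) or lower (left) on the HFrD-NDGA-INS than on the HFrD-INS arrays at an adjusted p under 0.05, with counts at the bars, list sizes in parentheses and dashed lines at the shares of all genes (16% higher, 10% lower). The interferon and chemokine lists lie far right of the line, and the lipid and glycolysis lists lie mostly left.

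In fatty acid synthesis 3 of 25 genes were higher and 7 lower, with a median log2 difference of -0.11 that turned positive after centring the arrays. Scd1 led the falls. Elovl5, an elongase of polyunsaturated fatty acids, read 4171, 3906 and 4056 on the HFrD-INS arrays and 2551, 2706 and 2604 on the HFrD-NDGA-INS arrays (log2 difference -0.63, SE 0.042, adjusted p = 3e-07), with no overlap. Fasn, fatty acid synthase, read 6867, 7289 and 6906 on the HFrD-INS arrays and 4587, 4620.3 and 4773 on the HFrD-NDGA-INS arrays (log2 difference -0.59, SE 0.074, adjusted p = 7.8e-05), and the NADPH-producing Me1 had a log2 difference of -0.63 (adjusted p = 0.00044). The groups did not overlap in Fasn, but after centring both calls were lost, at adjusted p = 0.0872 for Fasn and 0.0937 for Me1. Srebf1, which drives this pathway, read 2433, 2668 and 2652 on the HFrD-INS arrays and 2603, 2712 and 2625 on the HFrD-NDGA-INS arrays (log2 difference 0.036, adjusted p = 0.75), and Acaca, the first committed enzyme, had a log2 difference of 0.21 (adjusted p = 0.24).

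In triglyceride synthesis 4 of 19 genes were higher and 6 lower (median -0.036, positive after centring). Lpin1, a phosphatidate phosphatase, rose by 0.46 (adjusted p = 0.0012) and Agpat2 by 0.30 (adjusted p = 0.00062), while Gpat3 fell by a log2 difference of -0.57 (adjusted p = 0.0012), a call lost after centring. In lipolysis and lipid droplets 5 of 21 were higher and 5 lower (median -0.036, positive after centring). Plin1, which coats the lipid droplet of adipocytes, read 1962, 1929 and 2259 on the HFrD-INS arrays and 3016, 3112 and 3074 on the HFrD-NDGA-INS arrays (log2 difference 0.59, SE 0.063, adjusted p = 2.3e-05), without overlap. Pnpla2, the first triglyceride lipase, rose by 0.31 (adjusted p = 0.0021), and Lipe, hormone sensitive lipase, had a log2 difference of 0.15 (adjusted p = 0.058).

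Fatty acid uptake and activation had 1 of 21 genes higher and 6 lower (median -0.092, positive after centring). Slc27a1, a fatty acid transporter, rose by 0.54 (adjusted p = 0.00027). Fabp3, which carries fatty acids in muscle and fat, read 1592, 1809.5 and 1836 on the HFrD-INS arrays and 903, 914 and 949 on the HFrD-NDGA-INS arrays (log2 difference -0.92, SE 0.073, adjusted p = 1.5e-06) without overlap. Among the falls of the list, Slc27a2 (at least 1.81-fold lower) and Apoc2 (at least 5.64-fold lower) were liver-enriched. In mitochondrial fatty acid oxidation 5 of 27 were higher and 5 lower (median 0.016). Acot2 rose by 0.42, while Eci2, an isomerase for unsaturated fatty acids, fell by a log2 difference of -0.67. In peroxisomal oxidation 3 of 23 were higher and 7 lower, of which 3 were liver-enriched, and Acaa1b was at least 1.53-fold lower (adjusted p = 0.0014).

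Of 82 lipid genes that the study tabulated 9 were higher and 26 lower, with a median of -0.13 that turned positive after centring. This list was drawn up by the study and is not independent evidence, and 8 of its 26 falls were liver-enriched. Cholesterol synthesis and uptake had 1 of 26 higher and 7 lower (median -0.14, positive after centring). After Sc5d, Pmvk, a kinase of the mevalonate pathway, fell by a log2 difference of -0.65 (adjusted p = 2.4e-05) and Idi1, an isomerase of the same pathway, by -0.62 (adjusted p = 1.4e-05), a call lost after centring at an adjusted p of 0.0509. In glycolysis and fructose metabolism 2 of 20 were higher and 7 lower (median -0.12, positive after centring). The gluconeogenic Fbp1 was at least 3.04-fold lower and is among the 4 liver-enriched falls of this list. Khk, fructokinase, fell by a log2 difference of -0.48 (adjusted p = 6.9e-05).

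Adipokines moved in both directions, 4 of 21 higher and 5 lower. Lep, the satiety hormone leptin, read 48679, 41574 and 49551 on the HFrD-INS arrays and 25801, 25801 and 26128 on the HFrD-NDGA-INS arrays (log2 difference -0.84, SE 0.07, adjusted p = 2.5e-06), and the chow-INS arrays lay between at 35638, 40912 and 35493. Apln, the vasoactive peptide apelin, read 1456, 1549 and 1508 on the HFrD-INS arrays and 848, 892 and 858 on the HFrD-NDGA-INS arrays (log2 difference -0.80, SE 0.028, adjusted p = 6e-10). Both were lower on every NDGA array. Nrg4, which acts on liver, fell by a log2 difference of -0.58 (adjusted p = 1.7e-05), while Fst, the activin antagonist follistatin, rose by 0.64 (adjusted p = 2.7e-05) and Lcn2, lipocalin 2, by 0.53 (adjusted p = 5.7e-06). Adipoq had a log2 difference of -0.10 (adjusted p = 0.32), and its saturation leaves a difference that may be too small. Adipocyte markers summed to 415715 to 428849 on HFrD-INS and 366399 to 386024 on HFrD-NDGA-INS arrays, sums that include Lep and the saturated Adipoq. Of these 10 markers 2 were higher and 4 lower. Over the 19 settings from 1 to 4 were lower, and the median log2 difference ran from -0.14 to 0.11. Fabp4, among the falls, lost its call in 10 settings.

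Of 25 adipogenic and lipid transcription factors 8 were higher and 5 lower. Ppara, the fatty acid receptor that drives oxidation genes, read 261, 274 and 242 on the HFrD-INS arrays and 407, 359 and 415 on the HFrD-NDGA-INS arrays (log2 difference 0.60, SE 0.11, adjusted p = 0.0014), without overlap. Cebpa, a regulator of adipocyte differentiation, rose by 0.41 (adjusted p = 5.1e-06) and Nr1h3, the oxysterol receptor LXR alpha, by 0.40 (adjusted p = 4.7e-06). Esrra, a receptor that controls mitochondrial genes, read 1592, 1721 and 1546 on the HFrD-INS arrays and 995, 939.9 and 1054 on the HFrD-NDGA-INS arrays (log2 difference -0.70, SE 0.07, adjusted p = 1.1e-05), with the NDGA arrays below. In insulin signalling and glucose uptake 8 of 23 were higher and 3 lower (median -0.0084, positive after centring). Trib3, a pseudokinase that binds AKT, rose by 0.56 (adjusted p = 6.5e-06), and Grb14, which inhibits the insulin receptor, fell by a log2 difference of -0.76 (adjusted p = 5.3e-06). The receptor gene Insr read 288, 399.7 and 443 on the HFrD-INS arrays and 314, 363 and 369.6 on the HFrD-NDGA-INS arrays (log2 difference -0.092, adjusted p = 0.82), with overlapping arrays.

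The lipoxygenase and prostaglandin pathway, which holds the enzymes NDGA inhibits, had 6 of 27 genes higher and 1 lower, the fall being Hpgd. Alox5, the enzyme that starts leukotriene synthesis, read 989, 1038 and 1057 on the HFrD-INS arrays and 1206, 1253 and 1281 on the HFrD-NDGA-INS arrays (log2 difference 0.28, SE 0.09, adjusted p = 0.037). The arrays did not overlap, but the call was lost whenever any 1 of the 6 arrays was left out, at adjusted p from 0.0626 to 0.107. Alox15, a lipoxygenase of macrophages, read 236, 209 and 209 on the HFrD-INS arrays and 282, 269 and 224 on the HFrD-NDGA-INS arrays (log2 difference 0.24, adjusted p = 0.12), with overlap, and passed without HFrD-NDGA-INS replicate 3 (adjusted p = 0.034). Ephx2, the soluble epoxide hydrolase, read 249.9, 257 and 254 on the HFrD-INS arrays and 476, 428 and 418 on the HFrD-NDGA-INS arrays (log2 difference 0.80, SE 0.086, adjusted p = 2.2e-05), and Ptgis, prostacyclin synthase, rose by 0.36 (adjusted p = 0.00096). Ptgs2, the inducible cyclooxygenase, had a log2 difference of -0.20 (adjusted p = 0.42).

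Of 31 antioxidant and NRF2 target genes 4 were higher and 10 lower (median -0.079, positive after centring), with 1 fall liver-enriched. Hmox1, heme oxygenase 1, read 1371, 1167 and 1048 on the HFrD-INS arrays and 653, 674 and 680.2 on the HFrD-NDGA-INS arrays (log2 difference -0.83, SE 0.082, adjusted p = 1.1e-05), and the chow-INS arrays were higher still at 1798, 1697 and 1630.4. Gsta3, a glutathione transferase, fell by a log2 difference of -0.58 (adjusted p = 0.00017). Nqo1, a quinone reductase, fell by -0.54 on the log2 scale (adjusted p = 0.00067), a call lost after centring. Sod3, the secreted superoxide dismutase, read 10662, 11059.6 and 12007 on the HFrD-INS arrays and 15043, 16864 and 16234 on the HFrD-NDGA-INS arrays (log2 difference 0.51, SE 0.056, adjusted p = 2.5e-05), higher on every NDGA array.

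Clock genes moved in opposite directions, 6 of 18 higher and 3 lower, with a median of 0.13. Nr1d1 (REV-ERB alpha), a repressor in the clock, read 611, 629.9 and 596 on the HFrD-INS arrays and 1239, 1327 and 1346 on the HFrD-NDGA-INS arrays (log2 difference 1.09, SE 0.05, adjusted p = 8.1e-09), and chow-INS arrays were lowest at 280.2, 281 and 276. Dbp, an output factor that binds D-boxes, read 1676, 1748 and 1904 on the HFrD-INS arrays and 3347, 3332 and 3142 on the HFrD-NDGA-INS arrays (log2 difference 0.88, SE 0.059, adjusted p = 3e-07). Per3 rose by 0.60 (adjusted p = 0.0041), whereas Nfil3, which competes with Dbp for its sites, fell by a log2 difference of -0.77 (adjusted p = 0.00019) and the repressor Cry1 by -0.66 (adjusted p = 0.005). The time of tissue collection per group is not given in the sources used here. Of 21 immediate early genes, which respond within minutes to stimuli and handling, 9 were higher and 1 lower (median 0.19). Nr4a1 read 506, 579.8 and 585 on the HFrD-INS arrays and 1029, 982 and 999 on the HFrD-NDGA-INS arrays (log2 difference 0.85, SE 0.057, adjusted p = 3e-07), Atf3 rose by 0.80, Fosl2 by 0.65 and Ier2 by 0.64, while Fos read 913, 796 and 876 on the HFrD-INS arrays and 939.9, 991 and 1006 on the HFrD-NDGA-INS arrays (log2 difference 0.19, adjusted p = 0.11).

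Extracellular matrix genes split, 11 of 34 higher and 6 lower (median 0.11). Below Col1a1, Sparc, which binds collagen, read 15291, 17176 and 14891 on the HFrD-INS arrays and 9169, 8198 and 9379 on the HFrD-NDGA-INS arrays (log2 difference -0.82, SE 0.072, adjusted p = 3.6e-06). Thbs1, thrombospondin 1, rose by 0.65 (adjusted p = 0.0019), the protease inhibitor Timp1 by 0.55 (adjusted p = 3.8e-06) and the gelatinase Mmp2 by 0.44 (adjusted p = 0.00056). In branched-chain amino acid breakdown 5 of 22 were higher and 5 lower. The transaminases Bcat1 and Bcat2 rose by 0.82 and 0.52, and Dbt, a subunit of the dehydrogenase complex that follows, fell by a log2 difference of -0.88 (adjusted p = 3.2e-05). Of 14 thermogenic genes 4 were higher and 0 lower, including the amino acid transporter gene Slc36a2 (0.43) and Nrf1, a regulator of respiratory genes (0.41). Ucp1, the uncoupling protein of brown fat, was not above background in either group. Endoplasmic reticulum stress had 3 of 21 higher and 2 lower (median -0.043, positive after centring), cell cycle 6 of 24 higher and 0 lower (median -0.019, positive after centring), and steroid and retinoid handling 4 of 20 higher and 2 lower. Pdia4, a disulfide isomerase, rose by 0.46, Mcm7, a helicase subunit, by 0.32, and Aldh1a2, a retinal dehydrogenase, by 0.41.

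Markers of cells around the adipocytes also moved. Of 10 endothelial markers 6 were higher and 1 lower, against 16% and 10% of all genes, and from 6 to 7 were higher over the 19 settings. Emcn, a sialomucin of venous and capillary endothelium, read 5789, 5468 and 6136 on the HFrD-INS arrays and 8819, 9055 and 8457 on the HFrD-NDGA-INS arrays (log2 difference 0.60, SE 0.056, adjusted p = 6.7e-06). Vwf, von Willebrand factor, and Kdr, the VEGF receptor, rose by 0.58 (adjusted p = 1.9e-05) and 0.52 (adjusted p = 3.7e-05). Pecam1 was the exception, with a log2 difference of -0.42 (adjusted p = 1.1e-05) that was not called after centring. The endothelial sums ran from 30279 to 33016 on HFrD-INS and from 38993 to 40298 on HFrD-NDGA-INS arrays.

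**Figure D4:**
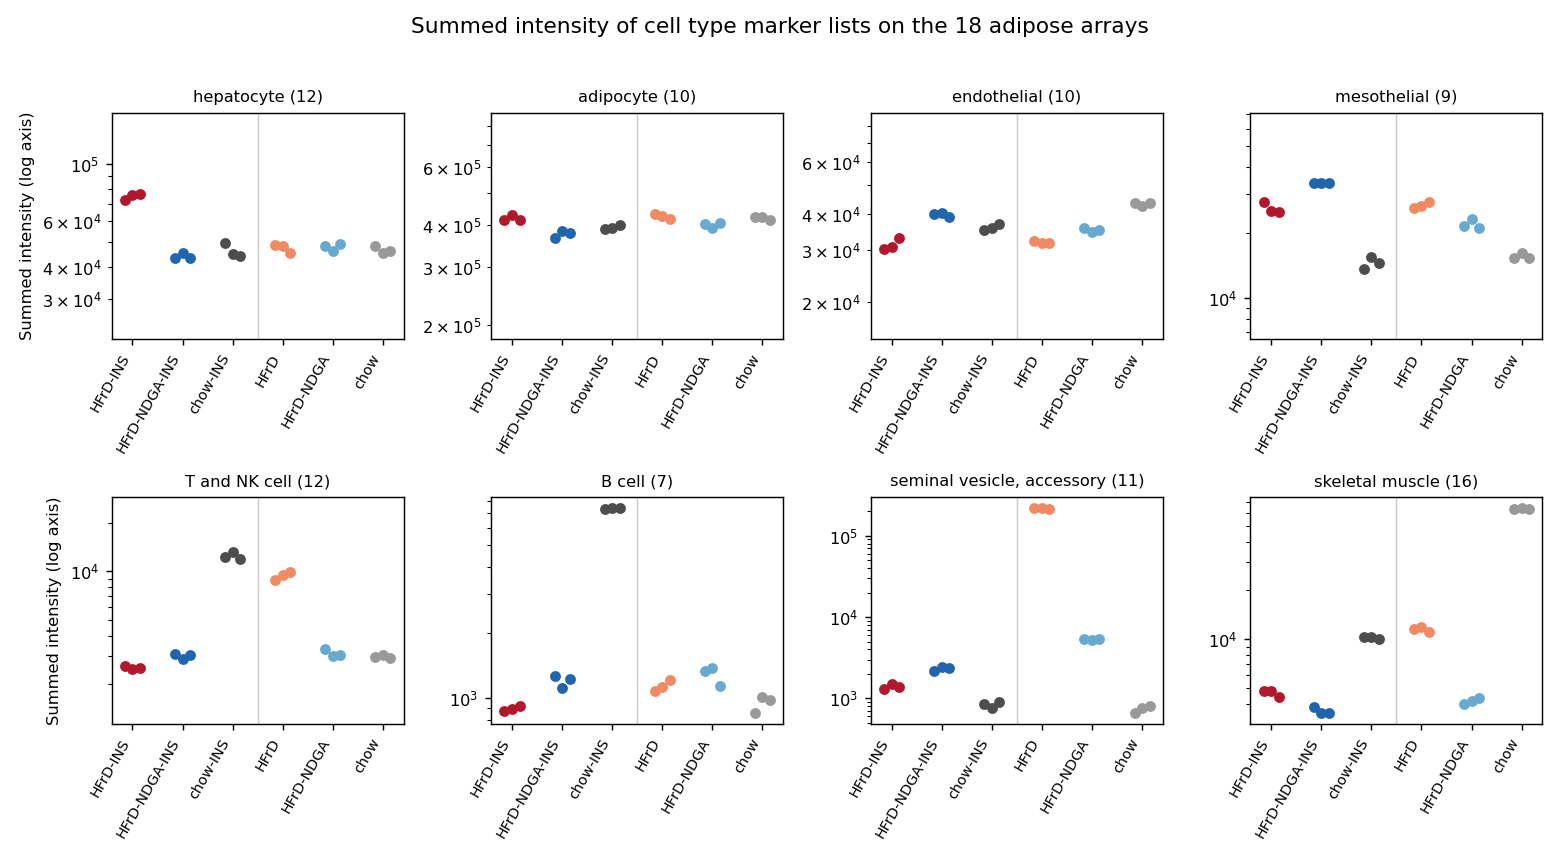
Summed normalized intensity (log axis) of 8 cell type marker lists on the 18 adipose arrays, 3 per group, with list sizes in parentheses and points as arrays. The hepatocyte sum is high on HFrD-INS alone, the endothelial and mesothelial sums are higher on HFrD-NDGA-INS than on HFrD-INS, and the lymphocyte sums are highest on chow-INS.

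Of 9 mesothelial markers 6 were higher and 0 lower, with sums of 24761 to 27685 and 33803 to 33987. Lrrn4, a membrane protein of mesothelium, read 265, 224 and 229 on the HFrD-INS arrays and 546, 559.97 and 467 on the HFrD-NDGA-INS arrays (log2 difference 1.13, SE 0.089, adjusted p = 1.4e-06), and Upk1b, an uroplakin, read 3714, 3704 and 3536 on the HFrD-INS arrays and 5144, 5480.3 and 5381 on the HFrD-NDGA-INS arrays (log2 difference 0.55, SE 0.034, adjusted p = 1.6e-07). Both were lowest on chow-INS arrays, where Upk1b read 1965, 1997 and 1901. Skeletal muscle markers went the other way, 0 of 16 higher and 10 lower, with sums of 4387 to 4778 and 3478 to 3818. Myh4, the fast myosin heavy chain, read 271, 287 and 236 on the HFrD-INS arrays and 162, 118 and 133 on the HFrD-NDGA-INS arrays (log2 difference -0.95, SE 0.13, adjusted p = 0.00018), and Acta1, skeletal actin, fell by a log2 difference of -0.74 (adjusted p = 4.1e-07). The chow arrays without INS had far higher muscle sums of 63815 to 64920. Of 8 smooth muscle markers 5 were higher and 1 lower, of 9 fibroblast markers 3 higher and 1 lower, of 9 mast cell markers 2 higher, and of 7 Schwann cell markers 1 higher and 2 lower, which for the falls of the first 2 lists and the rises of the last 2 is near the shares of all genes. Whether the shares of these cells in the pads differed was not tested.

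The same diets were compared on another pair of pools, HFrD and HFrD-NDGA without INS, which share no array with the main comparison. There 10112 genes changed (51.1%), 6795 higher and 3317 lower, against the HFrD arrays that stood apart. Of the 5154 genes called on the INS arrays 3525 were called on both pairs, 2726 of them in the same direction (77.3%) and 799 in the opposite one. Calls leaned upward on both pairs, 61.5% of them higher with INS and 67.2% without, which alone raises the share in the same direction. Genes higher on both numbered 2190, which is 69.1% of the INS rises, against 34.3% of all genes higher without INS. Genes lower on both numbered 536, which is 27.0% of the INS falls, against 16.8% of all genes lower without INS. The calls shared in direction were 52.9% of the INS calls and 27.0% of the calls without INS. Over all genes the log2 differences of the 2 pairs had a Pearson correlation of 0.233, given as a description across genes, which are not independent replicates. The NDGA effect itself differed between the pairs for 7353 genes (37.2%).

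**Figure D5:**
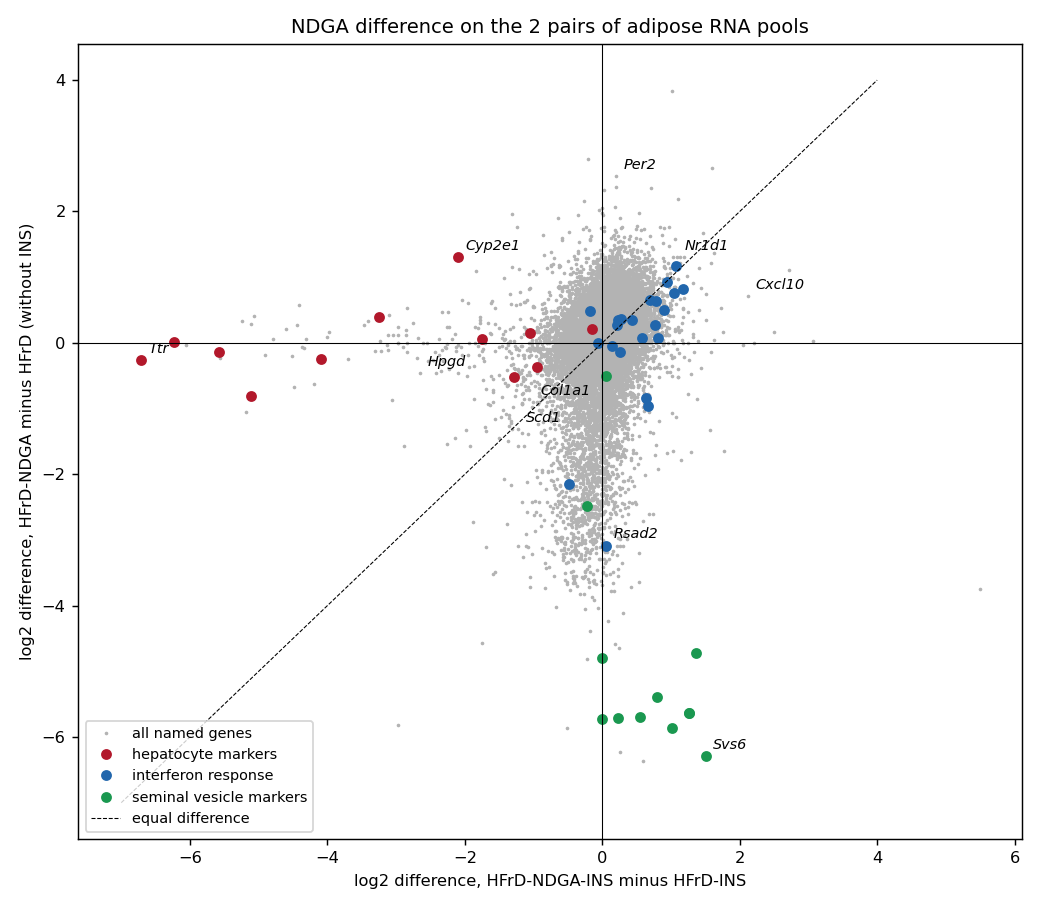
Log2 difference with NDGA on the INS arrays (horizontal axis) and on the arrays without INS (vertical axis) for all named genes, with hepatocyte markers in red, interferon response genes in blue and seminal vesicle markers in green. Hepatocyte markers spread along the horizontal axis down to -6.71 for Ttr, and seminal vesicle markers along the vertical one down to -6.30 for Svs6.

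Some changes differed little in size between the pairs, although a missed test does not show equal effects. Scd1 read 23398, 22350 and 20592 on HFrD and 8975, 8803 and 8858 on HFrD-NDGA arrays, a log2 difference of -1.31 that differed from the INS value by 0.093 (SE 0.086, adjusted p = 0.45). Col1a1 read 4042, 3805 and 3664 and 2021, 2073 and 2050.4, with a difference of effects of -0.10 (SE 0.08, adjusted p = 0.38). On both pairs the NDGA arrays of these genes were low and the arrays did not overlap. Fabp3 fell by -0.81 on the log2 scale without INS and Nfil3 by -0.82, with differences of effects of -0.11 (adjusted p = 0.46) and 0.048 (adjusted p = 0.89). Usp18, Ifit3, Ccl7, Tnf and Atf3 rose on both pairs, by 1.17, 0.93, 1.04, 0.97 and 0.94 without INS, with differences of effects between -0.15 for Atf3 and 0.14 for Tnf, none past the test. These 5 genes were picked after their values were seen. Nr1d1 rose by 1.31 without INS, a little more than with it (difference of effects -0.22, adjusted p = 0.028). Rps25-ps10 fell by -1.54 on the log2 scale without INS (difference of effects -0.72, adjusted p = 0.13).

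Other changes differed between the pairs by the test of the difference. The hepatocyte list had 12 of 12 lower with INS, and 3 higher and 3 lower without it, where 34.3% of all genes were higher and 16.8% lower. Ttr read 302, 299.8 and 296 on HFrD and 217, 268 and 269 on HFrD-NDGA arrays, and the effects differed by -6.45 (SE 0.17, adjusted p = 2e-11). Cxcl9 read 1515, 1396 and 1304 and 1387, 1414 and 1412, with a difference of effects of 1.03 (adjusted p = 4.2e-07). Of the interferon list 13 were higher and 4 lower without INS, the latter near the 16.8% of all genes, with a median of 0.31 against 0.10 over all genes. Gbp2 read 3146, 3169.8 and 3305 and 2445, 2561 and 2369.8, lower with NDGA there by -0.38 on the log2 scale and higher with INS (difference of effects 1.82, adjusted p = 7.2e-11). Rsad2 read 20524, 20068 and 19745 and 2275, 2663 and 2190.1, lower with NDGA there by -3.09 on the log2 scale (difference of effects 3.15, adjusted p = 1.5e-10), and the high arrays were those of the group that stood apart. Elovl5 and Nrg4 turned direction, with log2 differences of 1.16 and 0.63 without INS (differences of effects -1.78 and -1.20, adjusted p = 1.5e-10 and 2.1e-07). The clock genes Dbp and Per3 rose more without INS, by 1.52 and 1.73 (differences of effects -0.63 and -1.12, adjusted p = 5.6e-05 and 0.00034), and Per2 read 1029, 957 and 880.2 on the HFrD-INS arrays and 1041, 1177 and 1069 on the HFrD-NDGA-INS arrays (log2 difference 0.20, adjusted p = 0.17) but rose by 2.54 without INS (difference of effects -2.34, adjusted p = 4.6e-08).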

How the data were processed

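RNA of each group was pooled in equal amount, amplified, labelled with Cy5 and hybridized by the authors to 3 repeat single-colour Rat OneArray v1 arrays. The deposited values are background-subtracted spot intensity on the linear scale, with no scaling between arrays although the submitters named the file normalized, and each spot has a deposited detection p-value, whose method is not given in the sources used here. Another deposited table holds the same values and was not used. Array number limits the precision.

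Intensities of the 18 adipose arrays were therefore normalized here (quantile; the study's methods name normalization and log2 in Partek), set to at least 16 and log2 transformed (R 4.3.3 with limma 3.58.1; the R package data.table was at version 1.17.8). Of 24358 probes, 21270 carry a single symbol, 1175 several and 1913 none; the last were left out. A gene took its brightest probe (2518 of 19791 had several), and 2585 symbols were updated through RefSeq. Group means were compared with limma (lmFit and eBayes) over 6 groups, p-values were adjusted by Benjamini-Hochberg over all 19791 genes, and an adjusted p under 0.05 counts as changed. SE is that of a log2 difference. A group is not above background where no probe of the gene had a detection p under 0.05 on any of its 3 arrays; the fold is then a lower bound against the dimmest detected signal. Intensities of 65000 or more are saturated. The liver chow arrays, quantile normalized with the adipose chow arrays, gave the liver-enriched genes. That definition and the promoter searches for the IRF and HNF1 letters (RefSeq, GRCr8) were chosen after seeing the data, whereas the other letters were planned.

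Named were the 12 largest rises and falls among genes of a single symbol that is not a placeholder, with arrays that did not overlap, detected on all 6 arrays and not saturated, the 5 largest bounds each way among genes detected on all 3 arrays of one group and none of the other, up to 4 members of each list each way (defining members where fewer passed), marker genes and the 5 largest differences between pairs each way. Tap1, Isg15, Bst2, Irf1, Irf7, Stat2, Ccl2, Ccl7, Ccl11, Nqo1 and Psat1 were added after their values were seen. Some genes are not reported here. Members and lists were chosen with earlier results of these data known. Alternatives varied normalization, arrays, floor, filter, probes, test and replicates. The code was tested on simulated data.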

Additional observations from a re-analysis of the deposited data

Results flagged for a closer look

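The effect of NDGA differed between the INS arrays and the arrays without INS for 7353 genes (37.2%) by the test of the difference (limma, adjusted p under 0.05). Among the 39 genes named for the size of a change or of this difference, 37 passed. That count is not a result about them. Svs3a, Pate4, Svs5, Nid1 and Per2 were named because they passed this test, and the others for large changes on the INS arrays. Each value here is the log2 NDGA effect on the INS arrays minus that without INS. Without INS the effect is taken against HFrD arrays that stood apart from all other adipose groups.

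Secretory genes of the seminal vesicle led, all far brighter on the HFrD arrays without INS than in any other adipose group, at 7.80 for Svs6, 6.89 for Semg1, 6.87 for Svs3a, 6.20 for Pate4, 6.08 for Svs4 and 5.94 for Svs5. Svs4 read 53389.9, 51073 and 46569 on the HFrD and 1904, 1820.1 and 1995 on the HFrD-NDGA arrays.

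A higher effect on the INS arrays was also found for Cxcl11 (2.07), Cela3b (2.02), Gbp2 (1.82), Pla2g2a (1.77), Cxcl10 (1.41), Evpl (1.36), Bcl3 (1.23), RT1-T24-3 (1.18), Sbk1 (1.18), Ifgga4l (0.81), Ucma (0.66), Ddx60 (0.36) and Oas1a (0.35).

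Genes of plasma proteins and liver enzymes had a lower effect on the INS arrays, at -6.45 for Ttr, -6.02 for Gc, -5.44 for Apoa2, -5.32 for Fabp1, -4.37 for Apoc1, -4.32 for Ambp, -3.64 for Serpina1, -3.41 for Cyp2e1, -2.97 for Cyp2d2, -2.72 for Apoc3, -1.92 for Hpx and -1.64 for Hsd3b5. Ttr, Gc, Apoa2, Fabp1 and Ambp were not above background on the HFrD-NDGA-INS arrays, so their values are fitted ones and no bounds. The same direction of difference was found for Sc5d (-2.93), Hpgd (-2.18), Obp3 (-2.10) and RSA-14-44 (-0.69). Nid1, a basement membrane protein, read 4244, 4029 and 3723 on the HFrD-INS arrays and 2294, 2078 and 2252 on the HFrD-NDGA-INS arrays, and 1439, 1618 and 1591 and 4758, 5076 and 4725 on the pair without INS, so that it fell with INS and rose without (difference of effects -2.50). The clock gene Per2 differed by -2.34.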

How the results depend on the processing

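Of 5154 calls 3466 were kept after centring each array on its median, which called 4024 genes, and 3471 with no scaling, which called 4043. The falls depended most on scaling, 1985 as reported, 818 after centring and 1278 with no scaling. With a fold of 2 added, 324 genes were called, 68 higher and 256 lower. Leaving out 1 array at a time gave 3892 to 4885 calls, 2238 to 3034 higher and 1510 to 1851 lower. Genes with a different NDGA effect on the INS arrays numbered 7353 and 4351 after centring. Of the 12 hepatocyte falls 2 were left without the liver-enriched genes, an alternative chosen after seeing the data. Tf reversed to 0.053 after centring. Of the 152 genes that the text names with values, 122 passed in every setting and 12 passed as reported but lost the call in 1 setting or more. No paired analysis was possible because the labels give no replicate numbers shared between groups. The cause of these changes was not tested. Detection limits dim genes, with the lowest detected intensity at 72 to 93 on the 6 compared arrays.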

Other observations

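Psat1, an enzyme of serine synthesis picked out after its values were seen, read 6377, 6639 and 6269.9 on the HFrD-INS arrays and 74.4, 5942 and 16 on the HFrD-NDGA-INS arrays. The HFrD-NDGA-INS arrays disagreed with each other, replicate 2 lying within the range of all other adipose arrays and replicates 1 and 3 near or at the floor, so its log2 difference of -5.07 (SE 1.44, adjusted p = 0.02) rests on those arrays. The call was lost without replicate 1 (adjusted p = 0.081) or replicate 3 (adjusted p = 0.067) of that group, without HFrD-INS replicate 2 (adjusted p = 0.055), and in fits of the 9 INS arrays (adjusted p = 0.12, or 0.15 without moderation) or of the 6 compared arrays alone (adjusted p = 0.22).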
